A study of Mus musculus with 16 samples.

Results

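The change from polychromatic erythroblasts (Poly-E) to orthochromatic erythroblasts (Ortho-E) in mice without Ypel4 was read from 8 of the 16 RNA-seq libraries of the series. These are the 4 libraries titled Ypel4-/- Poly-E and the 4 titled Ypel4-/- Ortho-E, taken by title and paired by the number in the title, 1 to 4, which is read here as the mouse from which both populations were sorted. The other 8 libraries, 4 Ypel4+/+ Poly-E and 4 Ypel4+/+ Ortho-E from wild-type mice, were used to place this change beside the same step with Ypel4 present. All libraries came from bone marrow at steady state, and no treatment or age is given in the sources used here. The strain label, which both genotypes carry, gives a C57BL/6N background with the A<tm1Brd> allele, and for the disrupted gene Ypel4<tm1a(EUCOMM)Wtsi> with the suffix WtsiIeg. The Ypel4-/- mice were homozygous for the tm1a allele, a gene trap that splices the first part of Ypel4 into a cassette with the splice acceptor of the En2 gene in all cells of the animal. The populations were sorted by flow cytometry on the surface markers CD44 and Ter119, without dead cells, so the level of Cd44 is set by the gate and is not a finding here, and the genes behind Ter119 are likewise not read as findings.

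Poly-E cells are the last dividing stage of red cell formation in the marrow, and Ortho-E cells are the stage after it, which has left the cell cycle, condenses its chromatin and expels its nucleus to become a reticulocyte. During this step haemoglobin accumulates, the spectrin-based membrane skeleton is completed, and mitochondria and ribosomes are cleared. YPEL proteins are small and highly conserved zinc-binding proteins, and YPEL5 is a subunit of the CTLH ubiquitin ligase. Ypel4 is the family member most known for its expression in erythroblasts. The question addressed was how much of the Poly-E to Ortho-E programme is carried out when Ypel4 is disrupted.

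Genes that move together in this step are shown first by their promoters, the 300 bases from 250 before to 50 after the transcription start, on GRCm38.p6 from RefSeq. Plk1 and Cdk1 stand for the genes of mitosis, of which 49 of 56 fell, Orc1 for those of S phase, of which all 54 tested fell, Alas2, which rose itself, for haem synthesis, and Ypel4 is the disrupted gene. They lie at chr7:122159185-122159484 (+ strand) for Plk1, chr10:69352863-69353162 (- strand) for Cdk1, chr4:108579204-108579503 (+ strand) for Orc1, chrX:150547167-150547466 (+ strand) for Alas2 and chr2:84733954-84734253 (+ strand) for Ypel4. Capitals mark letters of a motif on either strand. In Plk1 and Cdk1 they mark the CCAAT box (CCAAT) and the cell cycle homology region CHR (TTTGAA). In Orc1 they mark the E2F motif (TTTNNCGC) and the CCAAT box, and in Alas2 the GATA motif (AGATAA) and the CACCC motif (CCNCNCCC). Ypel4 was searched for GATA and CACCC as well, but held no GATA match, so its capitals all mark CACCC.
Plk1: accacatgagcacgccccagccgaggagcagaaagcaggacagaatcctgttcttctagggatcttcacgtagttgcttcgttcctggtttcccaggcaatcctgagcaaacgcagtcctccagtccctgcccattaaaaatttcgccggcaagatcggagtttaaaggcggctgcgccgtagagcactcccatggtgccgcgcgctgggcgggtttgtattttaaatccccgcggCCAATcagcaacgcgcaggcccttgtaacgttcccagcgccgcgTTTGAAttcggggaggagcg
Cdk1: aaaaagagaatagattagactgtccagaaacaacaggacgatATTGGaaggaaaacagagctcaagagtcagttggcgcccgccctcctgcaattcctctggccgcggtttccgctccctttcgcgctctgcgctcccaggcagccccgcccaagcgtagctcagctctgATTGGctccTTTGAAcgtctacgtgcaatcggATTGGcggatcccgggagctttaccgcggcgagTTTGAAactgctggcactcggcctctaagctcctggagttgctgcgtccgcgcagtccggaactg
Orc1: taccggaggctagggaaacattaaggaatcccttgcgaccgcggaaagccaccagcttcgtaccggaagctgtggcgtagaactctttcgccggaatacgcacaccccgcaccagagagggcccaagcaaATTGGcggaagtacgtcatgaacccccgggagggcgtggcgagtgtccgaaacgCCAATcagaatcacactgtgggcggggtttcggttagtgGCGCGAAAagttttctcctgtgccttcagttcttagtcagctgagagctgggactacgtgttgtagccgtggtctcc
Alas2: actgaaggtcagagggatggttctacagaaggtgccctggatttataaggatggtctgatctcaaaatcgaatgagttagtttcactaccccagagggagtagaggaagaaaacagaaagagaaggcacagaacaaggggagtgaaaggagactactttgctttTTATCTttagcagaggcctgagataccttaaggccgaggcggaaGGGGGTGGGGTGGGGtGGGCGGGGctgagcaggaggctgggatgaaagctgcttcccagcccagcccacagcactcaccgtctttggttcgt
Ypel4: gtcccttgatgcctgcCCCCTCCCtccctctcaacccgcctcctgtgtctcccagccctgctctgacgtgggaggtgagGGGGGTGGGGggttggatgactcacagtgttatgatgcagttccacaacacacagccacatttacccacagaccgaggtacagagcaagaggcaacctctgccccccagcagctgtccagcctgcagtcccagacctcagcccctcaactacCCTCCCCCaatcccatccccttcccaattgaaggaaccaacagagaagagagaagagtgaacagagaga

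The promoters searched were those at the first listed start of each gene in RefSeq and did not cover every chromosome. The CHR motif stood in 68.1% of the 47 G2 and mitosis genes with a promoter among them, in 9.76% of the 41 S phase genes, and in 11.8% of the 7973 tested genes with a promoter. The E2F motif stood in 41.5% of the S phase promoters, in 12.8% of the G2 and mitosis promoters and in 9.17% of those of the tested genes. CCAAT boxes were found in 76.6% of the G2 and mitosis promoters, in 58.5% of the S phase promoters and in 39.6% of those of the tested genes. For haem synthesis, 14 of 15 promoters held a CACCC motif, which 68.1% of the tested genes also hold, and 2 of 15 held a GATA motif, which 6.3% of the tested genes hold. Among all 27025 promoters searched, the CHR was in 18.1%, E2F in 5.27%, the CCAAT box in 37.9%, GATA in 11.4% and CACCC in 49.1%. Both strands were searched, matches of a motif may overlap, and a match describes letters in this window and not a bound site.

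The counts of the targeted gene were read first. In CPM (counts brought to the same library size, here with the TMM factors of edgeR for the 8 Ypel4-/- libraries), Ypel4 (ENSMUSG00000034059, GRCm38 chr2:84734058-84738655, + strand) was at 9.39, 14.2, 22.5 and 14.8 in the Ypel4-/- Poly-E libraries of mice 1 to 4 and at 198, 229, 237 and 223 in their Ortho-E libraries. The populations did not overlap, and the log2 fold change was 3.89 (SE 0.11), with 2.48 on library totals. On library totals the mean level reached 2.85% of the wild-type level in Poly-E and 4.27% of it in Ortho-E. The remaining counts thus rose with maturation, as did the wild-type ones, whose log2 fold change was 3.15. By qPCR the authors did not detect Ypel4 mRNA in the Ypel4-/- populations. They also checked the disrupted allele in mapped reads of Ortho-E cells, and describe the trap as disrupting transcription of the exons that code for protein. En2 (chr5:28165694-28172166), whose splice acceptor is part of the trap, was at 0.144, 1.5, 1.97 and 1.52 CPM in the Ypel4-/- Poly-E libraries and at 17.3, 24.4, 23.7 and 24 CPM in Ypel4-/- Ortho-E. En2 rose by 4.07 on the log2 scale (SE 0.23, edgeR adjusted p = 6.49e-68), with 2.7 on library totals. A count here is 1 sum for the gene, and which part of Ypel4 the remaining reads cover was not tested here.

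Depth ran from 2670173 to 12451234 counts per library, with the deepest being Ypel4-/- Poly-E of mouse 4. The summed level of 17 late erythroblast markers was 15700 to 20700 CPM in Ypel4-/- Poly-E and 144000 to 173000 CPM in Ypel4-/- Ortho-E. These markers were chosen with earlier results of these data known, so their levels are no independent check of the labels. Summed markers of other cells were low. Granulocyte markers were at 2.15 to 5.05 CPM in Poly-E and 5.04 to 20.2 CPM in Ortho-E, with Elane and Cebpe at 0, macrophage markers at 5.52 to 6.97 and 11.3 to 19.7 CPM, with Marco at 0, B cell markers at 49 to 76.7 and 92.8 to 144 CPM, and T and NK cell markers at 7.48 to 8.67 and 5.04 to 11.3 CPM. Early progenitor markers were at 27.5 to 34.7 CPM and 12.7 to 24.5 CPM. Megakaryocyte and platelet markers were at 47.7 to 57.3 and 168 to 190 CPM, mainly from Itga2b (17.2 and 99.97 CPM) and Vwf (23.4 and 65.2 CPM), with Pf4, Ppbp, Gp1bb, Gp6 and Treml1 at 0 in Ortho-E. As a share of counts the B cell markers took 0.0076% to 0.0127% of Poly-E and 0.00554% to 0.00924% of Ortho-E counts, the granulocyte markers 0.000329% to 0.000835% and 0.000298% to 0.00118%, the macrophage markers 0.0009% to 0.00114% and 0.000664% to 0.00118%, and the megakaryocyte and platelet markers 0.00788% to 0.00926% and 0.00998% to 0.0119%. The part of such cells in the results was not tested.

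In Ypel4-/- mice 7475 of 11973 genes tested (62.4%) differed between Ortho-E and Poly-E at an adjusted p of 0.05 by edgeR's quasi-likelihood test with the mouse as a block. On the TMM scale 3601 were higher in Ortho-E (30.1%) and 3874 lower (32.4%), of which 2795 (23.3%) and 2876 (24.0%) by at least 2-fold. The split depends on the scaling. Without TMM, on library totals, 1392 genes were higher (11.6%) and 7293 lower (60.9%), since the median of all genes lay at -0.09 with TMM and at -1.47 on library totals, a shift of 2.62-fold. All 3874 genes lower with TMM were also lower on library totals, 1392 of the 3601 higher ones were also higher there (11.6% of all genes tested), and 877 were called in opposite directions (7.32%). The TMM-scaled CPM of the 4 Poly-E and the 4 Ortho-E libraries did not overlap for 54.8% of the genes tested. Below, "rose" and "fell" mean called on the TMM scale, that is relative to most genes, and the value on library totals, that is as a part of all counted RNA, stands beside it. Counts for each gene list are to be read beside the shares of all genes: 30.1% rose, 11.6% on both scales, and 32.4% fell. In bulk samples fewer cells of a type and less RNA per cell cannot be told apart, and neither scale shows how much RNA a cell held.

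The 12 largest rises, among called genes with a mean of at least 50 CPM in Ortho-E that rose in all 4 mice, exceeded 4 on the log2 scale with TMM. Tmcc2 (chr1:132356315-132391281), which codes for a transmembrane and coiled-coil protein, was at 786, 1369, 1949 and 1472 CPM in the Ypel4-/- Poly-E libraries and at 24450, 41390, 38840 and 38560 CPM in Ypel4-/- Ortho-E, the first mouse being the lowest in both. Its log2 fold change was 4.73 (SE 0.09), with 3.31 on library totals and 4.31 in Ypel4+/+. Xpo7 (chr14:70654246-70766628), a nuclear export receptor that carries histones out of the condensing nucleus, went from 922, 1588, 1619 and 1006 CPM to 32890, 35480, 33510 and 28980 CPM, with no overlap of the populations. Xpo7 rose by 4.71 (3.29 on library totals). Bpgm, the enzyme that makes 2,3-bisphosphoglycerate and so lowers the oxygen affinity of haemoglobin, went from 356, 562, 466 and 335 CPM to 10890, 10220, 9779 and 9016 CPM, a log2 fold change of 4.56 (3.14 on library totals). Others of the 12 with the largest rise were Tcp11l2 (4.63), Tbcel (4.5), Prokr1 and the long non-coding B230354K17Rik (both 4.35), Ube2h and the small nucleolar RNA gene Snora28 (both 4.24), Zfp874a (4.23), Bcl2l1 (4.17) and Lpin2 (4.15), and on library totals these ran from 2.73 to 3.21. Per length, Tmcc2 moved from rank 103 to rank 10 of all transcripts, from 1040 to 9180 TPM (a length-corrected level that sums to the same total in each library), and Xpo7 from rank 370 to rank 29, from 360 to 3170 TPM.

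The 12 largest falls were taken by the same limits in Poly-E, and genes at lower counts had larger fitted falls. Plk1 (chr7:122159437-122169875), the kinase that drives entry into mitosis and whose promoter is printed above, was at 108.6, 126, 86.4 and 126 CPM in the Ypel4-/- Poly-E libraries and at 17.9, 15.5, 13.4 and 19.4 CPM in Ortho-E. The populations did not overlap, and Plk1 changed by -2.75 on the log2 scale (SE 0.13, edgeR adjusted p = 2.28e-97), with -4.15 on library totals and -2.75 in Ypel4+/+. Aurkb, the kinase of the chromosomal passenger complex, changed by -2.67 (adjusted p = 8.31e-124). The other genes of the 12 with the largest fall were Pbk (-2.66), Cdk1 (-2.59), Tacc3 and Ticrr (both -2.58), Arhgef39 (-2.56), Top2a (-2.52), Pa2g4 (-2.51), Ska2 (-2.5), and Ncaph and Ska3 (both -2.47). Of these, Ska2 and Ska3 couple kinetochores to microtubules, Ncaph is a subunit of condensin, and Ticrr starts replication with TopBP1. On library totals the 12 ran from -3.86 to -4.15.

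**Figure D1:**
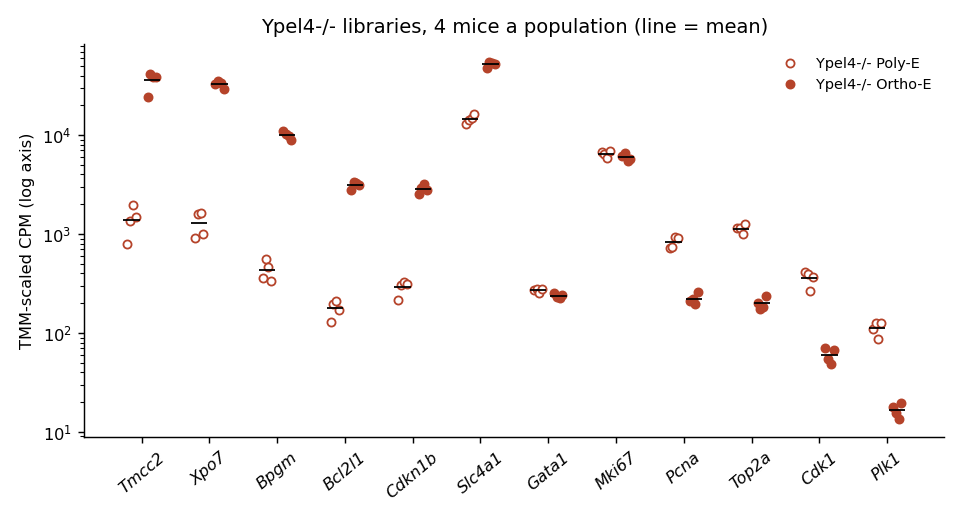
TMM-scaled CPM (log axis) of 12 genes in the 4 Ypel4-/- Poly-E libraries (open) and the 4 Ypel4-/- Ortho-E libraries (filled), each point a mouse and each line the mean of 4. Tmcc2 rose from a mean of 1394 to 35810 CPM and Plk1 fell from 112 to 16.6 CPM, while Mki67 (6497 and 6002 CPM) and Gata1 (270 and 238 CPM) overlap between the populations; on library totals both were lower in Ortho-E.

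Among 56 tested genes of G2 and mitosis, 49 fell and 5 rose in Ypel4-/- mice, beside 32.4% and 30.1% of all genes, and 2 of the 5 also rose on library totals. The list's median log2 fold change was -1.56 (-2.97 on library totals, -1.59 in Ypel4+/+), beside -0.09 over all genes tested. Cdk1, the kinase that starts mitosis, was at 416, 399, 266 and 371 CPM in Poly-E and at 70.4, 54.2, 48.5 and 67.1 CPM in Ortho-E. Top2a, the topoisomerase that untangles sister chromosomes, was at 1143, 1155, 992 and 1255 CPM and at 200, 176, 182 and 237 CPM, a change of -2.52 (adjusted p = 1.25e-159). Both genes were lower in every Ortho-E library than in any Poly-E library. The 2 that rose on both scales were Fzr1, the Cdh1 activator of the anaphase-promoting complex that ends mitosis and holds cells in G1 (from 420 to 2605 CPM, 2.63, 1.21 on library totals), and Pttg1, securin (from 16.6 to 145 CPM, 3.13, 1.72 on library totals). Mki67, a chromosome coat protein used as a marker of proliferation, was at 6746, 6433, 5887 and 6922 CPM and at 6189, 6650, 5497 and 5671 CPM. The populations overlapped and the change of -0.12 was not called (edgeR adjusted p = 0.199), while it fell by 1.54 on library totals.

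All 54 tested genes of S phase fell, on both scales. Their median was -1.96 (-3.37 on library totals, -2.04 in Ypel4+/+). Pcna, the sliding clamp of DNA polymerase, was at 723, 740, 927 and 907 CPM in Poly-E and at 210, 222, 198 and 259 CPM in Ortho-E, with no overlap and a change of -1.89 (edgeR adjusted p = 5.81e-93). Rrm2, the small subunit of ribonucleotide reductase, fell from 1851 to 540 CPM (-1.78), and Gins2, a subunit of the replicative helicase, fell the most, by 2.37 on the log2 scale at a low level of 14.04 and 2.602 CPM. Orc1, the origin recognition subunit whose promoter is printed above, changed by -0.58 from 67.3 to 45.3 CPM, the smallest change named here. Among 13 DNA methylation genes, 9 fell and 1 rose, with a median of -0.96 (-2.37 on library totals). Dnmt1, which copies methylation onto new DNA, went from 491 to 110 CPM (-2.15), and its recruiter Uhrf1 from 534 to 130 CPM (-2.04).

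Cell cycle inhibitors and exit genes were split, with 9 of 21 tested higher, 7 of them also on library totals, and 8 lower. Cdkn1b, the CDK inhibitor p27, was at 215, 306, 326 and 312 CPM in Poly-E and at 2557, 2940, 3213 and 2805 CPM in Ortho-E, all above the Poly-E libraries, a log2 fold change of 3.32 (1.9 on library totals). Ccng2, an atypical cyclin of resting cells, had the largest rise of the list at 3.6 (2.19 on library totals), and Btg2, an antiproliferative deadenylation factor, rose by 1.82 (0.4 on library totals). Rbl1, the pocket protein p107 that itself is an E2F target, fell by 2.38.

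All 9 tested globin genes rose, 6 of them also on library totals, and none fell on either scale. Their median was 2.41 (0.99 on library totals, 2.28 in Ypel4+/+). Hbb-bs (chr7:103826534-103828096), an adult beta globin, was at 18120, 23200, 19560 and 19990 CPM in the Ypel4-/- Poly-E libraries and at 107200, 109800, 108900 and 103300 CPM in Ypel4-/- Ortho-E, with a log2 fold change of 2.41 (SE 0.08, edgeR adjusted p = 2.84e-221). Hba-a1, an adult alpha globin, rose from 5773 to 30040 CPM (2.38, 0.96 on library totals), Hba-a2 by 2.87 and Hbb-bt by 2.02, the copies of each pair being so alike that reads on shared stretches were not counted and their split is uncertain. Hbq1a, a theta globin, rose by 3.47 at 7.098 and 77.1 CPM, and the embryonic Hbb-y by 2.01 at 0.882 and 3.33 CPM. Per length Hbb-bs was the most abundant transcript in both populations, at 99900 ± 8860 TPM (SD, n = 4) in Poly-E and 182000 ± 16800 TPM (SD, n = 4) in Ortho-E.

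Haem synthesis and transport genes rose in 15 of 20 cases and fell in 2, but only 6 rose also on library totals, where the list's median changed sign (1.15 with TMM, -0.27 on library totals). Alas2, the rate-limiting erythroid enzyme of haem synthesis, was at 2905, 3409, 3232 and 3065 CPM in Poly-E and at 18350, 18760, 18580 and 16690 CPM in Ortho-E, with a log2 fold change of 2.52 (adjusted p = 1.42e-203) with 1.1 on library totals. Slc25a39, the mitochondrial glutathione carrier, rose by 2.57 (1.15 on library totals). The members that fell were Tmem14c, the mitochondrial porphyrinogen transporter, from 342 to 153 CPM (-1.17), and Alad, the second enzyme, from 572 to 451 CPM (-0.34). Of 15 iron genes 6 rose, 2 of them also on library totals, and 8 fell. Slc25a37, mitoferrin 1, went from 4223, 4960, 5763 and 5429 CPM to 19720, 22990, 22920 and 20460 CPM, with no overlap (2.09, 0.66 on library totals). Tfrc, the transferrin receptor, rose from 2890 to 8349 CPM (1.53) but by 0.11 on library totals, where it was not called (adjusted p = 0.152). Ncoa4, the ferritin autophagy receptor, rose by 2.71, and Aco1, iron regulatory protein 1, fell by 2.26 at 6.38 and 1.36 CPM.

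Among 15 membrane skeleton genes 12 rose and 2 fell, and 5 rose on both scales. The median of 1.25 became -0.17 on library totals. Epb4.1, protein 4.1 that ties spectrin and actin to the membrane, was at 1226, 1416, 1751 and 1653 CPM in Poly-E and at 14810, 18240, 18300 and 17100 CPM in Ortho-E (3.51, 2.09 on library totals). Sptb, beta spectrin, rose by 0.54 with overlapping populations but fell by 0.88 on library totals. Actb, cytoplasmic beta actin (-0.92), and Tpm3, a tropomyosin (-1.59), fell. Of 17 genes of the band 3 complex and surface glycoproteins, 15 rose, 7 also on library totals, and none fell with TMM, while 7 fell on library totals.

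Slc4a1 (chr11:102348824-102366203), which codes for band 3, the anion exchanger and main anchor of the membrane skeleton, was at 13020, 14360, 14780 and 16390 CPM in the Ypel4-/- Poly-E libraries and at 47750, 55040, 53840 and 52070 CPM in Ypel4-/- Ortho-E. Every Ortho-E library lay above every Poly-E library, and the log2 fold change was 1.84 (SE 0.08, edgeR adjusted p = 3.96e-127), with 0.42 on library totals and 1.61 in Ypel4+/+. Per length Slc4a1 went from 12800 ± 876 to 15600 ± 1500 TPM (SD, n = 4), and in Ypel4+/+ from 13300 ± 655 to 14900 ± 1060 TPM (SD, n = 4). Art4, the Dombrock blood group carrier, rose the most of the list (2.79, 1.37 on library totals), and Aqp1, the water channel, rose by 0.24 with TMM and fell by 1.18 on library totals.

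**Figure D2:**
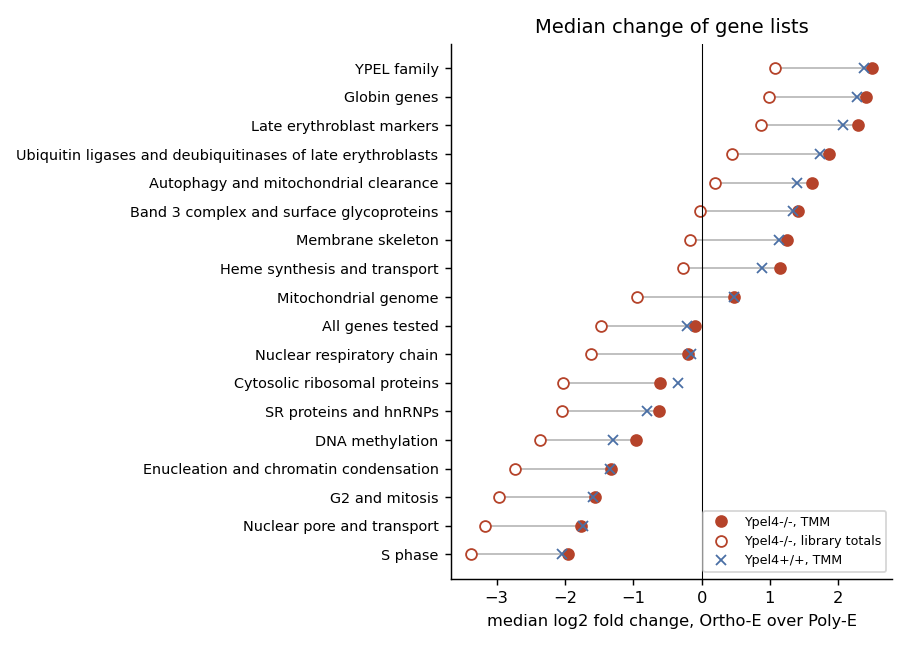
Median log2 fold change (Ortho-E over Poly-E) of 17 gene lists and of all genes tested, in Ypel4-/- with TMM (filled circles) and on library totals (open circles) and in Ypel4+/+ with TMM (crosses). The order with TMM runs from S phase at -1.96 to the YPEL family at 2.5, library totals lie lower throughout and turn the sign of haem synthesis, membrane skeleton, band 3 complex and mitochondrial genome, and the Ypel4+/+ medians lie near those of Ypel4-/-.

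Of 24 erythroid transcription factors 8 rose, 4 of them on both scales, and 8 fell, 33.3% each way and near the 30.1% and 32.4% of all genes. Gata1, the master regulator of the lineage, was at 271, 278, 252 and 277 CPM in Poly-E and at 254, 231, 225 and 242 CPM in Ortho-E. The populations overlapped and its change of -0.18 was not called (edgeR adjusted p = 0.0695), while on library totals it changed by -1.6. Klf1, the activator of the adult beta globin gene, went from 431, 511, 439 and 504 CPM to 333, 351, 336 and 376 CPM, a change of -0.43 (adjusted p = 3.14e-06). Foxo3, a regulator of autophagy and redox genes in late erythroblasts, went from 423, 470, 581 and 597 CPM to 2104, 2767, 2956 and 2726 CPM (2.35, adjusted p = 2.83e-154, 0.93 on library totals). Nfe2 (2.29), Lmo2 (2.16) and Runx1 (2.59) also rose, on both scales. The repressor Gfi1b (-1.43), the cofactor Ldb1 (-1.4), Zbtb7a (-0.86), which represses fetal globin, and Stat5b (-1.6) fell. Tal1 was at 910 and 1032 CPM, a change of 0.18 that was not called with TMM (adjusted p = 0.0572) and a fall of 1.24 on library totals. Myc fell by 2.13 (adjusted p = 0.0162) at 1.302 and 0.36 CPM, with overlapping populations.

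Autophagy and mitochondrial clearance genes rose in 25 of 34 cases, 17 of them on both scales, and fell in 3. Their median was 1.62 (0.2 on library totals, 1.4 in Ypel4+/+). Bnip3l, NIX, the receptor by which erythroid cells lose their mitochondria, was at 401, 526, 551 and 438 CPM in Poly-E and at 5164, 4924, 5420 and 4642 CPM in Ortho-E, with a log2 fold change of 3.4 (1.98 on library totals). Calcoco1, an autophagy receptor of the endoplasmic reticulum, rose the most (3.93, 2.51 on library totals), and Ulk1, the kinase that starts autophagy, went from 155 to 1823 CPM (3.57, 2.15 on library totals). The 3 that fell were Fundc1 (-1.78, at 1.09 and 0.363 CPM, with overlapping populations), Ulk2 (-1.3) and Atg4b (-0.56).

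All 7 tested genes of the mitochondrial genome rose with TMM and all 7 fell on library totals, the median being 0.47 with TMM and -0.94 on library totals. mt-Co1, a catalytic subunit of cytochrome oxidase, was at 3277, 3845, 2682 and 2688 CPM in Poly-E and at 7094, 5756, 5957 and 4962 CPM in Ortho-E, a change of 0.93 with TMM (adjusted p = 1.58e-29) and of -0.49 on library totals. mt-Cytb and mt-Nd6 rose by 0.41 and 0.37 with TMM, with overlapping populations, and fell by 1.01 and 1.04 on library totals. Of 75 nuclear genes of the respiratory chain, 35 fell and 15 rose, none of the 15 on both scales, with a median of -0.2 (-1.62 on library totals). Cox7b rose by 1.49 with TMM and was not called on library totals (0.08). Atp5b, the catalytic beta subunit of ATP synthase, rose by 0.66 with TMM and fell by 0.76 on library totals, and Atp5g2 fell by 1.87 at 3.77 and 0.834 CPM. As a part of all counts, the genes of the mitochondrial chromosome together, the ribosomal and transfer RNA genes included, took 0.772% ± 0.164 (SD, n = 4) of Poly-E and 0.611% ± 0.104 (SD, n = 4) of Ortho-E counts without Ypel4.

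Ubiquitin ligases and deubiquitinases of late erythroblasts rose in 23 of 28 cases, 15 of them on both scales, and fell in 2, with a median of 1.86 (0.44 on library totals). This list was made for late erythroblasts with earlier results of these data known, so its rise is no independent result. Fbxo30 had the largest rise (4.12, 2.7 on library totals). Trim10, a ligase needed for red cell maturation, went from 828 to 7468 CPM (3.18), and Rnf10 from 729 to 6688 CPM (3.21). The members that fell were Usp12 (-1.42) and Fbxw7 (-0.96), both under 12 CPM. Among 32 ubiquitin-conjugating enzymes 11 rose (34.4%) and 13 fell (40.6%), not far from the 30.1% and 32.4% of all genes. On both scales 8 rose (25%, beside 11.6% of all genes). Ube2o, the hybrid E2 and E3 enzyme that removes ribosomes and unpaired alpha globin in reticulocytes, was at 370, 483, 691 and 622 CPM in Poly-E and at 5129, 7975, 7892 and 7871 CPM in Ortho-E (3.75, 2.33 on library totals), mouse 1 being the lowest in both. Ube2h, the partner E2 of the CTLH ligase, was at 152, 194, 274 and 210 CPM and at 3054, 4360, 4060 and 4019 CPM (4.24, 2.82 on library totals). Ube2l6 rose by 2.8, and Ube2t, of the Fanconi anaemia pathway, fell by 2.08.

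The YPEL family rose in 4 of 5 genes, 3 of them on both scales. Of 12 CTLH complex genes, 6 rose, 5 on both scales, and 4 fell. The subunits Wdr26 (3.01, from 808 to 6512 CPM) and Ranbp10 (2.58) rose, and Maea, a RING subunit of its catalytic core, fell by 1.68 from 25.8 to 7.96 CPM. Ypel5, also a subunit, was at 229, 281, 184 and 200 CPM in Poly-E and at 1439, 1305, 1191 and 1099 CPM in Ortho-E (2.5, 1.08 on library totals). Ypel3, a paralogue of Ypel4, was at 97.6, 150, 139 and 107 CPM and at 1121, 1366, 1279 and 1170 CPM (3.34, 1.92 on library totals), and neither gene overlapped between populations. Per length Ypel3 reached 977 ± 114 TPM (SD, n = 4) in Ypel4-/- Ortho-E, beside 984 ± 20.9 TPM (SD, n = 4) in Ypel4+/+ Ortho-E, where Ypel4 itself stood at 2860 ± 343 TPM (SD, n = 4). Ypel1 (1.42, adjusted p = 0.0499) and Ypel2 (1.69, adjusted p = 0.0679) stayed under 2 CPM with overlapping populations. Of 46 proteasome genes 17 rose (37%) and 13 fell (28.3%), near the shares of all genes, and 2 rose on both scales (4.35%, beside 11.6% of all genes), from Psme3, the PA28 gamma activator (2.73), to Psmc4, an ATPase of the regulatory particle (-1.58).

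Enucleation and chromatin condensation genes fell in 18 of 26 cases and rose in 5, 3 of them on both scales. Their median was -1.32 (-2.73 on library totals, -1.34 in Ypel4+/+). The list holds genes of cytokinesis and condensin, Ncaph being the lowest at -2.47, while Xpo7 and E2f2 (1.66, from 1375 to 4325 CPM, 0.24 on library totals) were among those that rose. Nuclear pore and transport genes fell in 38 of 50 cases and rose in 9, 3 of them on both scales, with a median of -1.77 (-3.17 on library totals). Nup37, at 2.97 and 0.4905 CPM, was the lowest at -2.38. Xpo7 belongs to this list as well and had its largest rise (4.71). Summed over its members, the list took 0.995% to 1.04% of Ypel4-/- Poly-E counts and 2.05% to 2.34% of Ypel4-/- Ortho-E counts. Of 40 SR proteins and hnRNPs, 25 fell and 12 rose, 5 on both scales, with a median of -0.63 (-2.04 on library totals). Ptbp1, a repressor of exons, fell by 2.16, and Hnrnpa2b1 by 0.79 from 1379 to 799 CPM. Rbm38 (2.25) and Mbnl2 (3.08), RNA-binding proteins of late erythroid and differentiated cells, rose on both scales.

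Of 54 clustered histone genes tested, 15 rose (27.8%, near the 30.1% of all genes) and 10 fell (18.5%, beside 32.4% of all genes). On both scales 2 rose (3.7%, beside 11.6% of all genes). The libraries came from a kit that selects poly(A) RNA, which most of these transcripts lack. Hist1h1c and Hist1h1e, linker histones, were the 2 with a rise named here, by 2.01 (0.59 on library totals) and 2.19 (0.78 on library totals). Among 9 variant and linker histones 6 fell and 2 rose, none of the latter on both scales, and H2afz, the H2A.Z variant, went from 651 to 177 CPM (-1.89). Among nuclear long non-coding RNAs Malat1 was at 876, 744, 635 and 675 CPM in Poly-E and at 6314, 3423, 6017 and 4076 CPM in Ortho-E (2.72, 1.30 on library totals), above Poly-E in every library though with a wide spread. Neat1 rose by 2.79 (1.37 on library totals), and Snhg5, a host of small nucleolar RNAs, fell by 1.85.

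Of 23 genes of initiation and the HRI stress response, 12 rose, 6 on both scales, and 6 fell. Pabpc1, the poly(A) binding protein, was at 1591, 1744, 2338 and 2143 CPM in Poly-E and at 21170, 22970, 26210 and 24550 CPM in Ortho-E (3.61, 2.19 on library totals). Eif5 (3.7) and Ppp1r15a, the phosphatase subunit that reverses the stress response (2.74), rose on both scales, and the helicase Eif4a1 fell by 1.54. Ribosome biogenesis genes fell in 12 of 38 cases (31.6%, near the 32.4% of all genes) and rose in 4 (10.5%), none of these on both scales, with Rrn3, the RNA polymerase I factor, the lowest at -2.06 and Ncl, nucleolin, falling from 171 to 91.7 CPM (-0.9). Of the 20 aminoacyl-tRNA synthetases 10 fell (50%) and 6 rose (30%, near the 30.1% of all genes), 1 of the 6 on both scales. Chaperones gave 17 of 32 lower and 11 higher, 8 on both scales, among them Hspa5, BiP (2.16), and Dnajb2 (1.99), with Hspa14 the lowest (-1.9).

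The BCL2 family (30.8% higher and 46.2% lower), EPO and KIT signalling (36.4% and 27.3%) and glycolysis (26.7% and 40%) stood not far from the shares of all genes, 30.1% and 32.4%. Bcl2l1, BCL-XL, which keeps late erythroblasts alive, was at 129, 198, 211 and 172 CPM in Poly-E and at 2800, 3386, 3252 and 3158 CPM in Ortho-E (4.17, 2.75 on library totals), the sole one of 13 BCL2 family genes to rise on both scales, while 6 fell. Of 22 EPO and KIT signalling genes 8 rose, 3 on both scales, and 6 fell, with Pim1 (3.08) and Pik3r1 (2.97) among the rising and Fam132b, erythroferrone, the lowest (-2.53, at 7.33 and 1.32 CPM). In glycolysis 4 of 15 rose and 6 fell, Bpgm leading and Slc16a1, the lactate carrier, following (1.74, 0.32 on library totals). Pklr, the red cell pyruvate kinase, whose exons overlap another gene, fell by 3.93 at 4.15 and 0.321 CPM, and was the sole one of 17 late erythroblast markers to fall. The other 16 markers rose, 15 on both scales, with a list median of 2.29 (0.87 on library totals, 2.07 in Ypel4+/+). This list too was chosen with earlier results of these data known, so its rise is no independent result. Antioxidant genes gave 10 of 22 higher, 5 on both scales, and 8 lower. Cat, which codes for catalase, went from 220, 314, 276 and 221 CPM to 3844, 3620, 3460 and 3240 CPM (3.8, 2.38 on library totals). Gpx1 rose by 2.09 on the TMM scale, and Prdx2 by 1.07 with TMM but fell by 0.35 on library totals. Keap1, the sensor that restrains NRF2, fell by 1.95.

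Of 18 nutrient and nucleoside transporters 11 rose, 7 on both scales, and 6 fell. Slc25a51, the mitochondrial NAD carrier, went from 654 to 5796 CPM (3.15), and Slc1a5, a glutamine carrier, from 727 to 3385 CPM (2.22), both also higher on library totals, while the nucleoside carrier Slc29a1 fell by 2.17. Of 13 adhesion genes 6 rose (46.2%), 1 of them on both scales (7.69%, beside 11.6% of all genes), and 2 fell (15.4%), 1 of the 2 being Cd44, which the gate sets. Among the 6 was Cd36, the thrombospondin receptor, at 333, 399, 474 and 390 CPM in Poly-E and at 4226, 3821, 4321 and 3726 CPM in Ortho-E (3.34, 1.92 on library totals). Among 12 genes of red cell volume and cation transport, 4 rose and 7 fell, from the kinase Wnk1 (2.55, from 771 to 4521 CPM) to the potassium chloride cotransporter Slc12a4 (-2.68, at 7.03 and 1.11 CPM). Cholesterol synthesis genes fell in 13 of 24 cases and none rose. Of 10 flippase and scramblase genes 5 rose and 2 fell.

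How far the whole transcriptome moved was described by a position along the wild-type step, in which 0 is the mean of Ypel4+/+ Poly-E and 1 the mean of Ypel4+/+ Ortho-E in log2 CPM scaled over the 16 libraries, and each wild-type mouse was placed on the axis made from the other 3. Ypel4-/- Poly-E lay at -0.017 ± 0.032 (SD, n = 4), from -0.049 to 0.013. Ypel4-/- Ortho-E lay at 0.944 ± 0.046 (SD, n = 4), from 0.883 to 0.985. Held-out Ypel4+/+ Ortho-E lay at 0.936 ± 0.069 (SD, n = 4), from 0.858 to 1.019, and Ypel4+/+ Poly-E at 0.022 ± 0.086 (SD, n = 4). On this axis the Ypel4-/- Ortho-E libraries lay within the range of the wild-type ones. On an axis of the 500 genes of largest variance they did not, since Ypel4-/- Ortho-E lay at 0.881, 0.917, 0.969 and 0.926 (mean 0.923) and Ypel4+/+ Ortho-E at 0.931 to 1.055 (mean 0.981), so that 3 of 4 were below the lowest wild-type library. Those 500 genes were chosen on all Ypel4+/+ libraries, the held-out mouse included, and on no Ypel4-/- library. The wild-type range there is thus not a held-out one, and this axis cannot show that Ypel4-/- fell short. On the axes made from 3 wild-type mice, as for the held-out libraries, the Ypel4-/- Ortho-E mean was 0.93. No test was run on these positions. Both genotypes were sorted on the same surface markers, so a position describes the cells that met the gate. How many cells reached the Ortho-E gate cannot be read from these libraries.

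**Figure D3:**
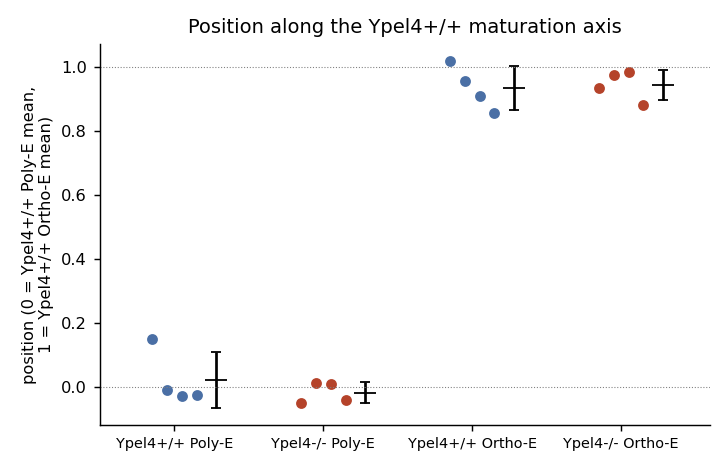
Position of each of the 16 libraries along the Ypel4+/+ maturation axis (0 and 1 are the Ypel4+/+ Poly-E and Ortho-E means), with the mean and SD of each group of 4 beside the points. Ypel4-/- Ortho-E libraries sit at 0.883 to 0.985, inside the range of the held-out Ypel4+/+ Ortho-E libraries (0.858 to 1.019) on this axis, and 1 Ypel4+/+ Poly-E library stands at 0.151. On the axis of 500 genes, not drawn, 3 of 4 Ypel4-/- Ortho-E libraries lie below the wild-type range, but all wild-type libraries entered the choice of those genes.

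Counts were concentrated on fewer genes in Ortho-E. The 100 most abundant genes held 32% ± 1.01 (SD, n = 4) of Ypel4-/- Poly-E counts and 53.6% ± 0.657 (SD, n = 4) of Ortho-E counts, and the 10 most abundant held 12.7% and 22.6%. Globin genes went from 5.78% ± 0.496 to 11.3% ± 0.429 (SD, n = 4). The mean number of genes seen, at 1 equal number of counts per library, went from 10451 to 8928. The change per mouse was then compared between the genotypes for 6 such measures with an exact permutation test (two-sided, smallest possible p = 0.029). None passed, and a single measure could not have passed after adjustment over 6, so this does not show that the changes were the same, with p from 0.17 for globin genes (5.53 points in Ypel4-/-, 6.67 in Ypel4+/+) to 0.89 for the 100 most abundant genes (21.6 and 21.5 points), and adjusted p from 0.514 to 0.886.

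Gene by gene, 11431 genes were tested in both genotypes, which share no library. Of the 7386 called in Ypel4-/- and the 7110 called in Ypel4+/+, 6440 were called in both with the same sign, 87.2% and 90.6% of each, and 1 with opposite signs. Of all 11747 genes tested in Ypel4+/+, 60.8% were called, 27.4% higher and 33.4% lower. On library totals 11.3% were higher there and 60.7% lower, so that 11.3% were higher and 33.4% lower under both scalings and 6.51% were called in opposite directions. The log2 fold changes had Pearson's r = 0.872 across these genes and r = 0.996 across the 2290 genes with a mean of at least 50 CPM, where genes are not independent replicates. Over those 2290 genes the slope of Ypel4-/- on Ypel4+/+ was 1.03, and that of Ypel4+/+ on Ypel4-/- was 0.96. Over the 7110 genes called in Ypel4+/+ the slope of Ypel4-/- was 0.93 with an intercept of 0.13, and over those called in Ypel4-/- the slope of Ypel4+/+ was 0.87. Over the 2290 genes with a mean of at least 50 CPM, changes were higher in Ypel4-/- by a median of 0.16 when each genotype was scaled on its own. The median was 0.03 when the 16 libraries were scaled together, so this offset depended on the scaling. With the 16 libraries scaled together, the Ypel4-/- changes were lower by 0.16 than the values given above.

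**Figure D4:**
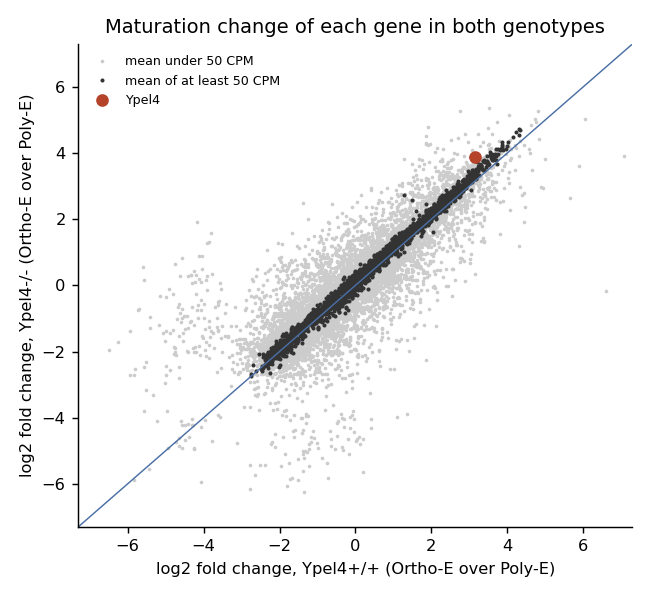
Log2 fold change of Ortho-E over Poly-E (TMM scale of each genotype) in Ypel4-/- (vertical) against Ypel4+/+ (horizontal), each point a gene tested in both, dark points with a mean of at least 50 CPM, and the line marking equal change. The 2290 dark points follow the line (r = 0.996), Ypel4 itself lies above it at 3.89 and 3.15, and the grey low-count genes scatter widely.

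Whether the step differed between genotypes was tested by the interaction of genotype and population over all 16 libraries, with the mouse as a block. Of 13318 genes 1 was called (0.00751%), Ypel4, whose rise was larger by 0.62 in Ypel4-/- (SE 0.13, edgeR adjusted p = 0.0339), from the low level given above. At an unadjusted p under 0.05 stood 471 genes (3.54%). The call of Ypel4 rested on the fit, with an adjusted p between 0.00102 and 1.0 over the alternatives. It was lost with DESeq2, with filterByExpr, without the block and without any of Ypel4+/+ mice 1, 2 or 3 (0.73, 0.253 and 0.105) or Ypel4-/- mice 1 or 4 (1.0 and 0.155), while the difference itself stayed between 0.47 and 0.64 in these settings.

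The genes next to Ypel4 in that test were cytosolic ribosomal protein genes. In Ypel4-/- mice 59 of 80 fell and 5 rose, none of the 5 on library totals, with a median of -0.61 (-2.03 on library totals), and in Ypel4+/+ mice 50 fell and 8 rose, with a median of -0.35. Rpsa, of the small subunit, was the lowest, at 291, 246, 220 and 185 CPM in the Ypel4-/- Poly-E libraries and at 76, 49.5, 52.7 and 54.6 CPM in Ortho-E (-2.0), while Rpl37a rose by 0.64 with TMM and fell by 0.78 on library totals, and Rplp0, of the ribosomal stalk, fell by 0.36. The interaction was negative, that is a larger fall in Ypel4-/-, in 76 of the 80, with a median of -0.31 and an unadjusted p under 0.05 in 42, but none passed the adjustment. Rps12, with the lowest p of them (2.44e-05, edgeR adjusted p = 0.162), had an interaction of -0.55 and was at 427, 361, 279 and 203 CPM in the Ypel4-/- Poly-E libraries and at 228, 201, 189 and 160 CPM in Ypel4-/- Ortho-E. The populations overlap, and the Poly-E libraries differ among themselves by more than the Ortho-E ones. Next were Rps27, Rpl36, Rps27rt and Rps23, with p from 4.33e-05 to 0.00034.

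The spread among mice was wide. With all 16 libraries scaled together, the median change of the ribosomal protein genes was -0.8, -1.15, -0.78 and -0.35 in Ypel4-/- mice 1 to 4 and -0.3, -0.51, -0.63 and -0.26 in Ypel4+/+ mice. Ypel4-/- mouse 4, whose Poly-E library was the deepest of all, had the smallest change of its genotype. Without it 20 genes passed the interaction test, of which 16 were ribosomal protein genes, all 16 with the larger fall in Ypel4-/-. Their share of all counts went from 2.45%, 2.27%, 1.91% and 1.52% in Ypel4-/- Poly-E to 0.646%, 0.481%, 0.482% and 0.507% in Ortho-E, a change of -1.51 ± 0.374 points (SD, n = 4) beside -1.17 ± 0.193 points (SD, n = 4) in Ypel4+/+, which an exact permutation test did not separate (two-sided p = 0.2). Nuclear respiratory chain genes leaned the same way, with a negative interaction in 63 of 75 (median -0.19) and 11 at an unadjusted p under 0.05, beside 48% negative and 3.78% under 0.05 among all genes tested in Ypel4-/-. Clustered histone genes leaned the other way, with a negative interaction in 20 of 55, a median of 0.24 and 9 at an unadjusted p under 0.05. Late erythroblast markers had a negative one in 3 of 17, a median of 0.09 and 3 under 0.05.

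The sign of the interaction also moved with gene length. Ribosomal protein genes have a median exon length of 1516 bases, beside 4601 for genes with a mean of at least 50 CPM. Among such genes under 1 kb that are not ribosomal protein genes, 81.8% of 55 had a negative interaction (median -0.1), against 60.7% of 191 between 1 and 2 kb, 42.8% of 631 between 2 and 4 kb and 30.4% of 1340 of 4 kb and over (median 0.05). The part of length or depth in the ribosomal protein result was not tested.

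**Figure D5:**
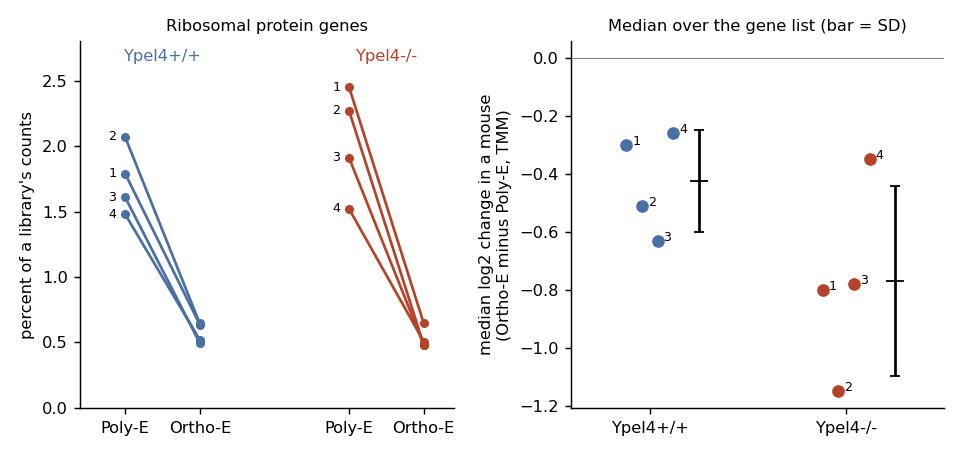
Left, percent of each library's counts on ribosomal protein genes, with a line joining the Poly-E and Ortho-E libraries of a mouse (numbers name the mice), and right, the median log2 change of the list within each mouse with its mean and SD. Ypel4-/- Poly-E spreads from 1.52% to 2.45% while Ypel4-/- Ortho-E lies at 0.481% to 0.646%, and mouse 4 of Ypel4-/- (-0.35) lies among the Ypel4+/+ mice (-0.63 to -0.26).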

How the data were processed

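RNA of sorted Poly-E and Ortho-E cells was sequenced in 16 libraries. The deposited values are counts: per the file headers, the authors used featureCounts 1.6.4 to sum reads over the exons of each of 46078 genes, without strand leaving out multi-mapping reads and reads assigned to more than 1 gene. Reads were mapped to GRCm38 by the nf-core pipeline, and the authors tested with DESeq2. TruSeq v2 libraries do not keep the strand, so genes with overlapping exons (28 of 151 named, among them Alas2, Tmcc2, Epb4.1, Fzr1, Prdx2, Pklr and Orc1) and near-identical copies are uncertain.

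Groups and mouse numbers came from the sample titles. Here Ortho-E was compared with Poly-E within Ypel4-/- and within Ypel4+/+ (8 libraries each), and the interaction over 16, in R 4.3.3 with edgeR 4.0.16 (quasi-likelihood, robust, TMM, total of at least 10 counts, mouse as a block, Benjamini-Hochberg threshold of 0.05). Standard errors are the log2 fold change over the square root of F. TPM divides counts by exon length. The fits were run on simulated counts in which few genes changed. In the Ypel4-/- comparison 62.4% of genes were called, so the simulation does not speak to the choice of scaling. Depth, 2670173 to 12451234 counts per library, limits precision for genes of few counts. With the mouse as a block, p-values rest on how the paired change varied among mice, with a spread estimate partly shared across genes.

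Pairing comes from the number in the titles, read as 1 mouse. Over 7456 genes deviations from the group means correlated at 0.336, 0.057, 0.222 and 0.304 between the populations of Ypel4-/- mice 1 to 4. The Poly-E library of mouse 2 correlated more with the Ortho-E library of mouse 1 (0.16).

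Named genes were taken by rule: Ypel4 and En2, the 12 largest rises and falls among called genes of at least 50 CPM that moved alike in all 4 mice, the extreme, most abundant and opposite members of each of 46 lists, and the lowest interaction p, a few of which are not reported here. The comparison, lists and alternatives were chosen with earlier results of these data known. Alternatives were DESeq2 1.42.0, its size factors, library totals, filterByExpr, no filter, no block, globin genes left out and each mouse left out, and, added after seeing the data, axes of 3 mice and factors of all 16 libraries. Lists are described by counts and medians without a set test.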

Additional observations from a re-analysis of the deposited data

Results flagged for a closer look

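Of 90 groups of 4 libraries examined, 7 had a library apart from the other 3 by Dixon's criterion (gap to the next library over the range of the 4), where chance gives about 1 group in 20. In Ypel4-/- Ortho-E, mouse 1 was the low one for En2 (17.3 CPM), Tmcc2 (24450 CPM) and Ube2o (5129 CPM) and the high one for the share of counts on ribosomal protein genes (0.646%). The 100 most abundant genes held 52.7% of counts in the lowest Ypel4-/- Ortho-E library. Pttg1 was at 21.3 CPM in the highest Ypel4-/- Poly-E library, and 1 Ypel4+/+ Poly-E library lay at 0.151 on the maturation axis. The interaction of genotype and population was called for Ypel4 (0.62, edgeR adjusted p = 0.0339), a call that other settings did not keep and beside which other genes were called in some of them.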

How the results depend on the processing

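On library totals without TMM, calls in Ypel4-/- became 1392 higher and 7293 lower (870 and 6465 by at least 2-fold) and in Ypel4+/+ 1324 and 7130. There the list medians turned for haem synthesis (-0.27), membrane skeleton (-0.17), band 3 complex (-0.02) and mitochondrial genome (-0.94), as did mt-Co1 (-0.49), Sptb (-0.88), Aqp1 (-1.18), Tal1 (-1.24), Rpl37a (-0.78), mt-Nd6 (-1.04), mt-Cytb (-1.01), Atp5b (-0.76), Prdx2 (-0.35) and Ighm (-0.62). Tal1 was at -0.01 with factors of all 16 libraries, by which Gata1 (-0.37) and Mki67 (-0.3) were called and Aqp1, Ypel1 and mt-Nd6 lost their calls, and Mki67 was at 0.02 with filterByExpr. The count of calls in Ypel4-/- was 6511 with DESeq2, 6185 with filterByExpr and 7305 without the mouse block, all within 1.5 times of 7475. The interaction gave 0 calls with DESeq2, 0 with filterByExpr, 0 with no replicate block, 3 on library totals (Rps12, Rps27 and Ypel4) and 0 to 20 leaving out 1 mouse. Without Ypel4+/+ mouse 1 the sole call was Lrrc8d, and without Ypel4-/- mouse 2 Hist2h4 and Malat1 were added to Ypel4, genes named here after their values were seen except Malat1. With globin genes left out, the change in the top 10 share was 7.68, in the top 100 share 20.2 points and in genes seen -1400. With a prior count of 0.5 Ypel4-/- Ortho-E lay at 0.896 on the axis, and held-out Ypel4+/+ Ortho-E at 0.885. The cause of these moves was not tested. Poly-E and Ortho-E libraries of Ypel4-/- number 2 correlated at 0.057, below the other pairs. That Poly-E library correlated more with the Ypel4-/- Ortho-E library of number 1 (0.16). The pairing by number is thus not shown by the data for number 2. Genes under a few CPM (Myc, Fundc1, Ypel1, Ypel2) rest on few counts, and Myc, Fundc1 and Ypel1 were not called with DESeq2. Neither scaling gives RNA per cell.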
